A study of Bos taurus with 4 samples.

Results

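CDKN1A, PERP, TP53I11, MDM2, BAX, BCL2L1, MCL1 and DIABLO were examined in Holstein embryos as a group of p53 targets and apoptosis regulators. The 8 genes were taken as given, and every probe bearing one of the 8 symbols was read, which gave 13 of the 43794 embryo probes on the array. Of the 8 genes, 7 had a probe with signal above the negative control spots, through 11 probes, out of 7879 such genes among 15214 with a named probe. MDM2 was the gene without one.

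Embryos of high BHB cows, whose circulating beta-hydroxybutyrate exceeded 0.9 mmol/l, were compared with embryos of low BHB cows, which were below 0.9 mmol/l. Beta-hydroxybutyrate is the ketone body that accumulates in dairy cows in negative energy balance. All donors of both groups had follicle aspiration and then ovarian stimulation with FSH (400 mg, 8 injections). They were inseminated with 4 doses of sexed semen from 6 bulls. Morulas and blastocysts were recovered together on day 7, so each RNA came from a mixture of stages, and total RNA was amplified before labelling. Each of the 4 two-colour arrays held 1 high BHB and 1 low BHB RNA. The high BHB RNA carried Cy5 on arrays 1 and 2 and Cy3 on arrays 3 and 4. The labels describe the arrays as biological replicates and do not give the number of cows or embryos behind each RNA, so the p-values reflect only how far the 4 arrays differ, which may be technical. Parity, days since calving and age of the cows were not given in the labels.

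The p53 pathway responds to DNA damage and metabolic stress. Among its targets, CDKN1A encodes p21, which inhibits cyclin-dependent kinases, and MDM2 encodes a ubiquitin ligase that acts back on the pathway in a feedback loop. Death through the mitochondrial route depends on the BCL2 family: BAX permeabilises the outer mitochondrial membrane, BCL2L1 (BCL-XL) and MCL1 oppose it, and DIABLO (SMAC), released from the opened mitochondrion, blocks the inhibitor of apoptosis proteins. Apoptotic cells occur normally in bovine blastocysts.

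Of the 7 genes above background, 6 had a mean ratio above 0, meaning a higher signal in high BHB embryos, and 1, MCL1, had a mean below 0. The median of the 7 mean log2 ratios was 0.44, against -0.04 over all 7879 tested genes, of which 45.6% were above 0. With median centring in place of loess, the members' median was 0.15. The medians over all tested genes were then also lower, at -0.61, -0.12, -0.11 and -0.21 on arrays 1 to 4. No member passed an adjusted p of 0.05 in limma, and only 0.0121% of all tested probes did, namely 2 of 16575, both without a gene name. At an unadjusted p under 0.05, with the brightest probe standing for each gene, the count was 1 member, TP53I11. Of all tested genes 17.3% were called in this way. A further MCL1 probe, EMBV3_00650, had an unadjusted p of 0.049 in limma, with a mean below 0. Adjusted p-values of the 11 member probes ran from 0.204 to 0.916.

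TP53I11 and BAX stood higher in high BHB embryos on all 4 arrays, 2 of 7 members against a background of 10.4% of genes. No representative member probe was lower on all 4 arrays, where 15.6% of genes were. Because whole embryos were measured, a lower ratio cannot tell fewer cells of a type from less RNA per cell.

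Much of the height of the member group came from array 1. There the median of the 7 members was 1.73, against -0.14 over all tested genes, and all 7 members were above 0. On arrays 2, 3 and 4 the members' medians were 0.18, 0.24 and 0.30, and 4 members were above 0 on each. Array 1 gave the highest of the 4 ratios for 6 of the 7 members, and for 27.6% of all tested genes. Without array 1 the median over the members was 0.24.

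Array 1 stood apart in spread as well. The SD of its log2 ratios over tested probes was 0.83, against 0.44, 0.52 and 0.61 on arrays 2, 3 and 4, while its Pearson correlation across probes with the others, 0.18, 0.10 and 0.38, spanned those of the remaining pairs, 0.21, 0.18 and 0.25. The intensity-dependent correction for dye (loess) was also strongest there: it raised the ratio of CDKN1A by 1.26, of DIABLO by 1.24, of TP53I11 by 1.13 and of BCL2L1 by 0.76, relative to centring the array on its median. The part of this correction in the members' ratios was not tested beyond the values under median centring given below.

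**Figure D1:**
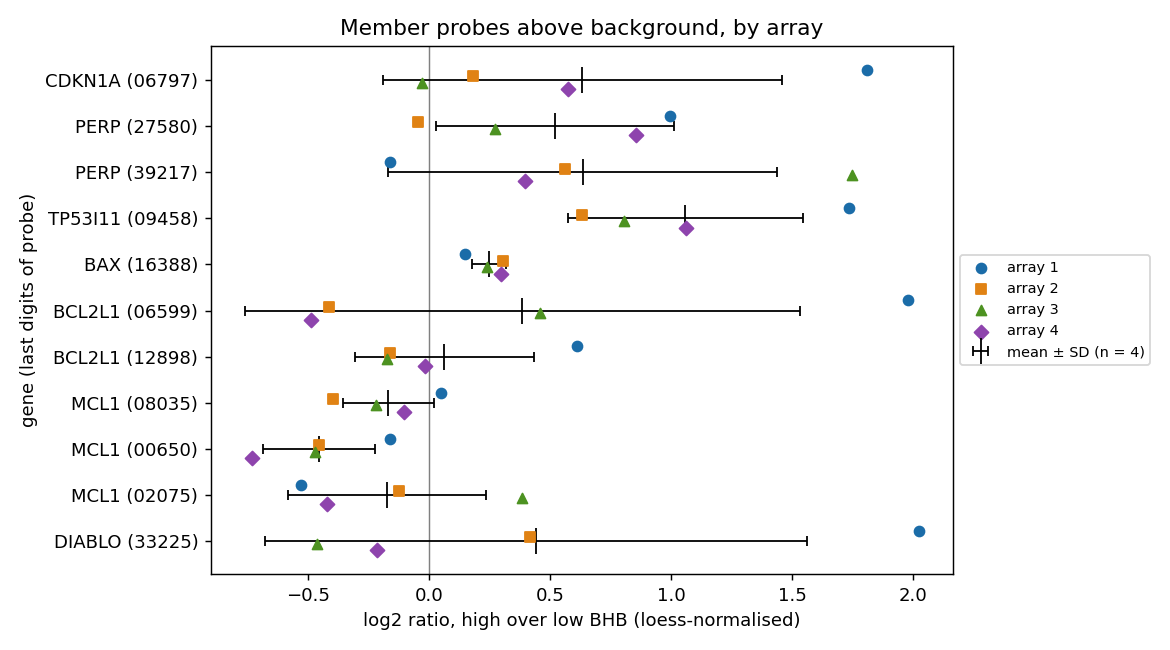
Log2 ratio of high over low BHB for the 11 member probes above background, with each array as a coloured point and a bar for the mean and SD of the 4 arrays. All 4 points of TP53I11 and of BAX lie to the right of 0, and the array 1 points of CDKN1A, TP53I11, the upper BCL2L1 probe and DIABLO lie between 1.73 and 2.02.

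**Figure D2:**
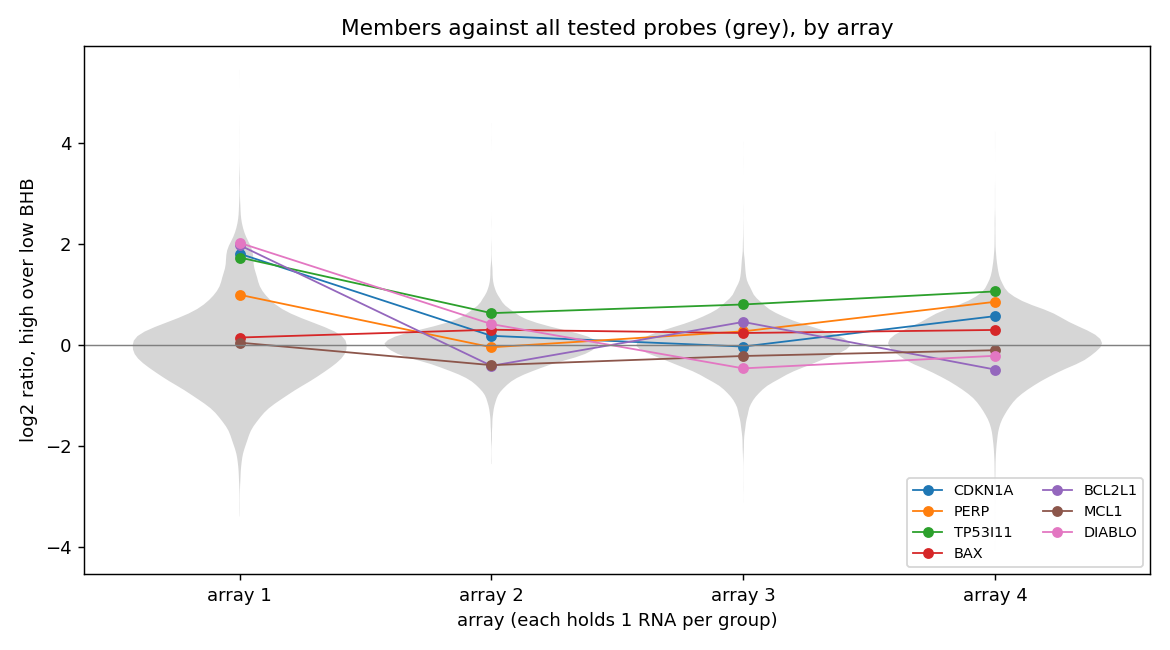
Log2 ratio of the representative probe of each of the 7 members on each array (lines join the values of a gene and imply no order), over the distribution of all 16575 tested probes in grey. On array 1 the members run from 0.05 to 2.02, and on the other arrays from -0.49 to 1.06.

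Among the p53 targets, CDKN1A was read by the probe EMBV3_06797. Its spot intensity in the high BHB channel was 1502, 2052, 5430 and 4153 on arrays 1 to 4, and 1118, 2785, 4201 and 2352 in the low BHB channel, above the detection threshold in both channels on every array. The normalised log2 ratio was 1.81, 0.18, -0.03 and 0.57. Array 1 thus lay far above the other arrays, array 3 was near 0, and the levels of the groups overlapped. The mean was 0.63 ± 0.82 (SD, n = 4), a 1.55-fold ratio with a 95% interval of 0.97 to 2.48 (adjusted p = 0.348 in limma). Without array 1 the mean was 0.24.

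PERP, a p53 target that encodes a tetraspan membrane protein of desmosomes, was read by 2 probes. The brighter, EMBV3_27580, had log2 ratios of 0.99, -0.05, 0.27 and 0.86 with a mean of 0.52 ± 0.49 (SD, n = 4, adjusted p = 0.337). EMBV3_39217 had -0.16, 0.56, 1.75 and 0.39 with a mean of 0.63 ± 0.80 (SD, n = 4, adjusted p = 0.343). The means were alike, yet the arrays that were high differed: arrays 1 and 4 for the first probe and array 3 for the second. On array 3 the probes were 1.48 apart and on array 1 they were 1.16 apart, so a single array did not give 1 value for the gene. For both probes the levels of the groups overlapped.

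TP53I11, a p53-inducible gene, showed the clearest separation of the 8. Probe EMBV3_09458 gave spot intensities of 1170, 1294, 2590 and 2803 in the high BHB channel and 836, 1371, 1096 and 1155 in the low BHB channel. The raw high BHB signal was the lower of the pair on array 2. The median over all spots there was 286 in the Cy5 channel, which held the high BHB RNA, and 386 in the Cy3 channel. After normalisation the log2 ratio was 1.73, 0.63, 0.80 and 1.06.

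All 4 TP53I11 ratios were above 0, and each lay between the 93.9 and 97.6 percentile of tested probes on its array. Quantile-scaled channel levels (log2) were 10.93, 10.55, 10.80 and 10.83 in high BHB embryos and 9.20, 9.92, 9.99 and 9.76 in low BHB embryos. These 2 ranges did not overlap, which held for 1 of the 7 members and, in this direction, for 1.3% of tested genes; the reverse order, every high BHB level below every low BHB level, held for 0 members and 2.4% of genes. The mean ratio was 1.06 ± 0.48 (SD, n = 4), which is 2.08-fold with a 95% interval of 1.44 to 3.00. It ranked 13 of 7879 genes by mean ratio and 52 by p, and its adjusted p was 0.204. Titles number the dye-swapped arrays 1 and 2 again, and with arrays of one title number averaged, which leaves 2 values, the adjusted p was 0.0009 and 1531 of 16575 probes were called. The exact sign-flip p of 4 concordant arrays, the smallest 4 arrays can give, was 0.13 (two-sided). Leaving out array 1, 2, 3 or 4 gave means of 0.83, 1.20, 1.14 and 1.06.

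MDM2, the feedback inhibitor of the pathway, was at the limit of detection. Its probe EMBV3_41693 read 0.87, 0.96, 0.93 and 0.90 times the detection threshold in the high BHB channel and 0.99, 1.07, 0.83 and 0.99 times in the low BHB channel. Low BHB RNA on array 2 alone was above it, so MDM2 was not tested and no loess ratio is given for it.

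**Figure D3:**
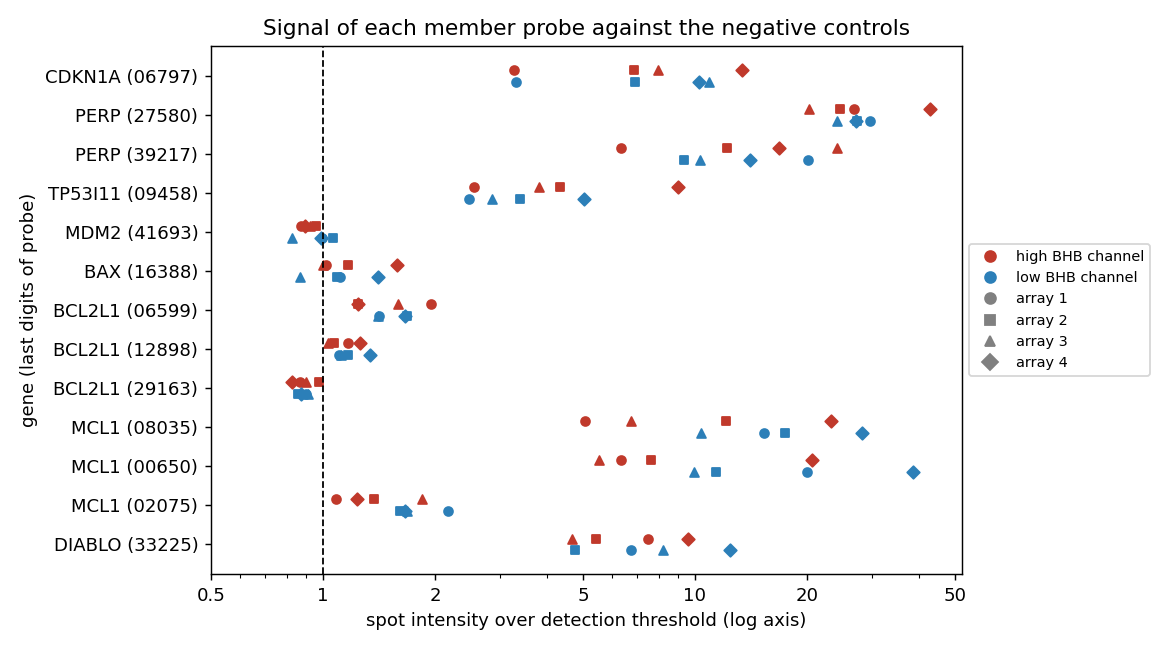
Spot intensity of each of the 13 member probes divided by the detection threshold of its channel and array (log axis), in the high and low BHB channels of the 4 arrays. MDM2 and 1 BCL2L1 probe lie around or below the dashed line at 1, BAX on both sides of it, the other BCL2L1 probes between 1.03 and 1.95, and the remaining genes, except 1 MCL1 probe, well above it.

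Of the apoptosis regulators, BAX had the most even ratio. Probe EMBV3_16388 gave log2 ratios of 0.15, 0.30, 0.24 and 0.30, all above 0 and close together. Their mean was 0.25 ± 0.07 (SD, n = 4), a 1.19-fold ratio with a 95% interval of 0.88 to 1.60 (adjusted p = 0.550). The interval is wider than the SD of this probe alone would give, because limma draws the variance of each probe towards that of all probes. The BAX signal was dim: it was 1.00 to 1.58 times the threshold in the high BHB channel and 0.87 to 1.41 times in the low BHB channel, below it on array 3. Near the threshold a ratio is compressed by the background, and the levels of the groups overlapped.

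BCL2L1, which restrains BAX, had 3 probes. EMBV3_06599 gave log2 ratios of 1.98, -0.41, 0.46 and -0.49, with arrays 1 and 3 above 0 and arrays 2 and 4 below. Its mean was 0.38 ± 1.15 (SD, n = 4, adjusted p = 0.647), and without array 1 it was -0.15. EMBV3_12898, which was dimmer at 1.03 to 1.34 times the threshold, gave 0.61, -0.16, -0.18 and -0.02 with a mean of 0.06 ± 0.37 (SD, n = 4, adjusted p = 0.916). Both probes were highest on array 1. EMBV3_29163 was below the threshold in both channels on every array.

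MCL1, another inhibitor of mitochondrial death and a short-lived protein, also had 3 probes, and all 3 had means below 0. EMBV3_08035, the brightest, gave log2 ratios of 0.05, -0.40, -0.22 and -0.10 with a mean of -0.17 ± 0.19 (SD, n = 4, adjusted p = 0.707). EMBV3_00650 gave -0.16, -0.45, -0.47 and -0.73, below 0 on every array, with a mean of -0.46 ± 0.23 (SD, n = 4) and an adjusted p of 0.333. EMBV3_02075 gave -0.53, -0.13, 0.38 and -0.42 with a mean of -0.17 ± 0.41 (SD, n = 4, adjusted p = 0.735). The third probe thus lay above 0 on array 3, where the other two were below it. None of the MCL1 probes separated the groups by level.

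DIABLO was read by EMBV3_33225, with log2 ratios of 2.02, 0.41, -0.46 and -0.21. The arrays with high BHB RNA in Cy5 averaged 1.22 and those with it in Cy3 averaged -0.34, so its direction followed the dye. The mean was 0.44 ± 1.12 (SD, n = 4, adjusted p = 0.583), and without array 1 it was -0.09. The adjusted p of the dye term for DIABLO was 0.992. No probe had a dye effect at an adjusted p of 0.05, and 610 of 16575, DIABLO among them, had one at an unadjusted p under 0.05.

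The within-array difference between BAX and its inhibitors was set out after the values had been seen. BAX minus MCL1 was 0.10, 0.70, 0.46 and 0.40 for EMBV3_08035, a mean of 0.42 ± 0.25 (SD, n = 4), and 0.31, 0.76, 0.71 and 1.03 for EMBV3_00650, a mean of 0.70 ± 0.30 (SD, n = 4). For EMBV3_02075 it was 0.68, 0.43, -0.14 and 0.72. BAX was thus the higher ratio on all arrays against the brighter MCL1 probes and on 3 of 4 against the dimmest. BAX minus BCL2L1 was -1.83, 0.72, -0.22 and 0.79 for EMBV3_06599, with no common direction. For EMBV3_12898 it was -0.46, 0.47, 0.41 and 0.32, above 0 on the 3 arrays other than array 1.

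Median centring in place of loess left the tested genes off 0: their median was -0.61 on array 1 and -0.12, -0.11 and -0.21 on arrays 2, 3 and 4. Relative to that shift, TP53I11 stood at 1.22, 0.61, 0.70 and 1.00 with a mean of 0.88 ± 0.28 (SD, n = 4), and BAX at 0.83, 0.27, 0.49 and 0.38 with a mean of 0.49 ± 0.24 (SD, n = 4). CDKN1A stood at 1.17, 0.19, -0.25 and 0.53, a mean of 0.41 ± 0.60 (SD, n = 4). TP53I11 and BAX therefore remained above 0 on each array, while CDKN1A again straddled it. The BCL2L1 probe EMBV3_29163, which was below the detection threshold throughout, stood at 0.83, 0.56, 0.004 and 0.09 on this scale. This probe was thus as high as BAX or higher on arrays 1 and 2, and below BAX on arrays 3 and 4. The MDM2 probe, also not tested, stood at 0.39, -0.30, 0.46 and 0.25, below BAX on every array. The part of background signal in the BAX ratio was not tested.

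On the same relative scale the MCL1 probes EMBV3_08035 and EMBV3_00650 had means of -0.35 ± 0.14 and -0.60 ± 0.16 (SD, n = 4), and both were below 0 on all 4 arrays. This scale lacks the intensity-dependent correction, which raised these bright probes by 1.13 and 0.98 on array 1. After loess EMBV3_08035 was at 0.05 there. DIABLO stood at 1.40, 0.41, -0.64 and -0.26, the same order of arrays as after loess. EMBV3_02075 had a mean of -0.14 ± 0.37 and stood at 0.39 on array 3. Taken without the shift, the median-centred mean was 0.62 for TP53I11, 0.23 for BAX, 0.21 for PERP, 0.15 for CDKN1A, 0.11 for BCL2L1, -0.03 for DIABLO and -0.61 for MCL1. The relative value of BAX was thus the larger of the 2.

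**Figure D4:**
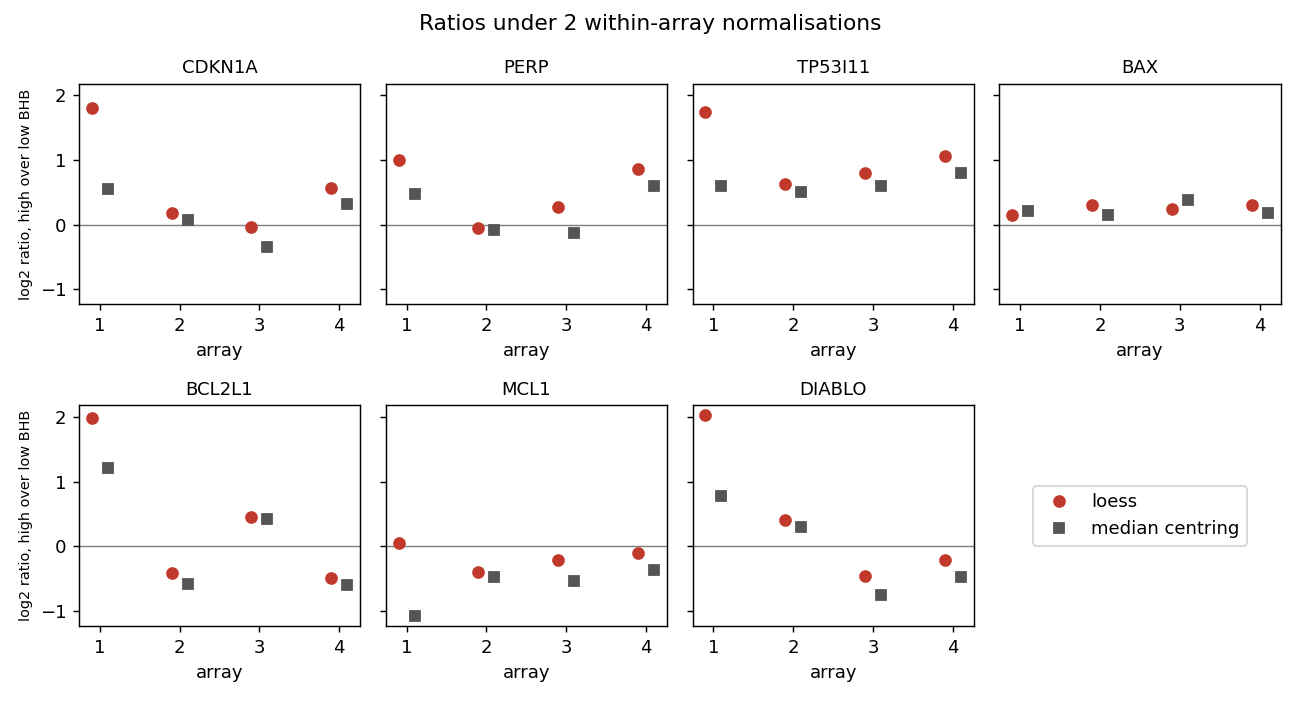
Log2 ratio of the representative probe of each of the 7 members on each array after loess (circles) and after centring each array on its median (squares). The squares lie 1.26 below the circles for CDKN1A on array 1 and 1.13 below for TP53I11, while for BAX the 2 values are close on every array.

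The mates of these genes were taken from wider lists chosen with earlier results of these data known, and no gene in any list passed an adjusted p of 0.05. In the p53 core and its regulators, 13 of 17 genes were tested, 4 above and 9 below 0, with a median of -0.18. The highest were PPP1R13L, an inhibitor of the pathway, at 0.64 ± 0.64 (SD, n = 4), TP73, a transcription factor, at 0.42 ± 0.19, and COP1, a ubiquitin ligase, at 0.19 ± 0.24. The lowest were CHEK1, a DNA damage checkpoint kinase, at -0.71 ± 0.27, RCHY1, a further ubiquitin ligase, at -0.71 ± 0.92, and ATM, the double-strand break kinase, at -0.48 ± 0.51. CHEK1 was lower on all 4 arrays (-0.68, -0.51, -1.10 and -0.56), with an adjusted p of 0.237.

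Of 34 other p53 target genes, 20 were tested, 11 above and 9 below 0, with a median of 0.02. BTG2, an antiproliferative factor, stood at 0.39 ± 0.49 (SD, n = 4), CCNG1, cyclin G1, at 0.33 ± 0.35, and PIDD1, an adaptor of the caspase-activating PIDDosome, at 0.32 ± 0.38. At the other end were TRIAP1, an inhibitor of apoptosis, at -0.55 ± 0.12, the kinase PLK2 at -0.52 ± 0.45, and TIGAR, a regulator of glycolysis, at -0.51 ± 0.18. TRIAP1 was -0.69, -0.43, -0.59 and -0.49 over the arrays, with an adjusted p of 0.286. The members CDKN1A, PERP and TP53I11 lay above all 20 of these, whose highest mean was 0.39, but they were chosen with results of these data known and this order was not tested.

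In the rest of the BCL2 family, 8 of 18 genes were tested, 5 above and 3 below 0, with a median of 0.19. BOK, a BAX relative, stood at 0.68 ± 0.51 (SD, n = 4), BCL2L13 at 0.57 ± 0.75, and BID, the BH3-only activator of BAX, at 0.29 ± 0.14. BOK was 0.97, 0.01, 0.59 and 1.17 over the arrays, with an adjusted p of 0.285. BNIP3L and BNIP3, receptors for the removal of mitochondria, were at -0.80 ± 0.82 and -0.46 ± 0.34, and BCL2L2, an inhibitor, at -0.25 ± 0.69. BCL2L2 was detected in high BHB RNA on 1 array and in low BHB RNA on 3, so it was tested through the low BHB channel alone. Both BNIP3L and BNIP3 were below 0 on all 4 arrays, with adjusted p of 0.294 and 0.343.

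Downstream of the mitochondrion, 13 of 22 genes of the inhibitor of apoptosis, apoptosome and caspase list were tested, 6 above and 7 below 0, with a median of -0.05. FADD, the death receptor adaptor, stood at 0.45 ± 0.30 (SD, n = 4), though its other probe was at -0.30. ENDOG, a mitochondrial nuclease, was at 0.24 ± 0.44, and BIRC5 (survivin) at 0.21 ± 0.43 with its other probe at -0.25. CYCS, the cytochrome c that assembles the apoptosome, was at -0.72 ± 0.43, CASP6 at -0.40 ± 0.61 and AIFM1 at -0.28 ± 0.43. CYCS was below 0 on all 4 arrays (-0.96, -0.11, -0.72 and -1.06), with an adjusted p of 0.258. XIAP, the main target of DIABLO, was detected in high BHB RNA on 2 arrays and in low BHB RNA on 3, and its mean was 0.12 ± 0.44.

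Among the inhibitors and partners of the kinases that CDKN1A acts on, 14 of 18 genes were tested, 5 above and 9 below 0, with a median of -0.14. CCND3 (cyclin D3) stood at 0.48 ± 0.91 (SD, n = 4), the kinase CDK6 at 0.23 ± 0.07 and the inhibitor CDKN1B at 0.10 ± 0.27. CDK6 was detected in low BHB RNA on 1 array. CCNA2 (cyclin A2) was at -0.90 ± 0.93, with its other probe at 0.11, and the inhibitor CDKN2B, detected in high BHB RNA on 1 array, at -0.70 ± 0.36. PCNA, the replication clamp that p21 binds, was at -0.58 ± 0.16, and its other probes had means from -0.41 to -0.28. PCNA was -0.46, -0.64, -0.78 and -0.46 over the arrays, with an adjusted p of 0.277.

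Of 10 desmosome genes, listed because PERP belongs to desmosomes, 5 were tested, 2 above and 3 below 0, with a median of -0.08. Plakoglobin, JUP, was at 0.22 ± 0.32 (SD, n = 4), PKP4 at 0.22 ± 0.78 and desmoplakin, DSP, at -0.08 ± 0.34. JUP was detected in high BHB RNA on 3 arrays and in low BHB RNA on 2, so it was tested through the high BHB channel alone. DSG2 was at -0.09 ± 0.58 and PKP2 at -0.82 ± 0.70, the latter with an adjusted p of 0.275. PERP lay above all 5 in mean ratio, a difference that was not tested.

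**Figure D5:**
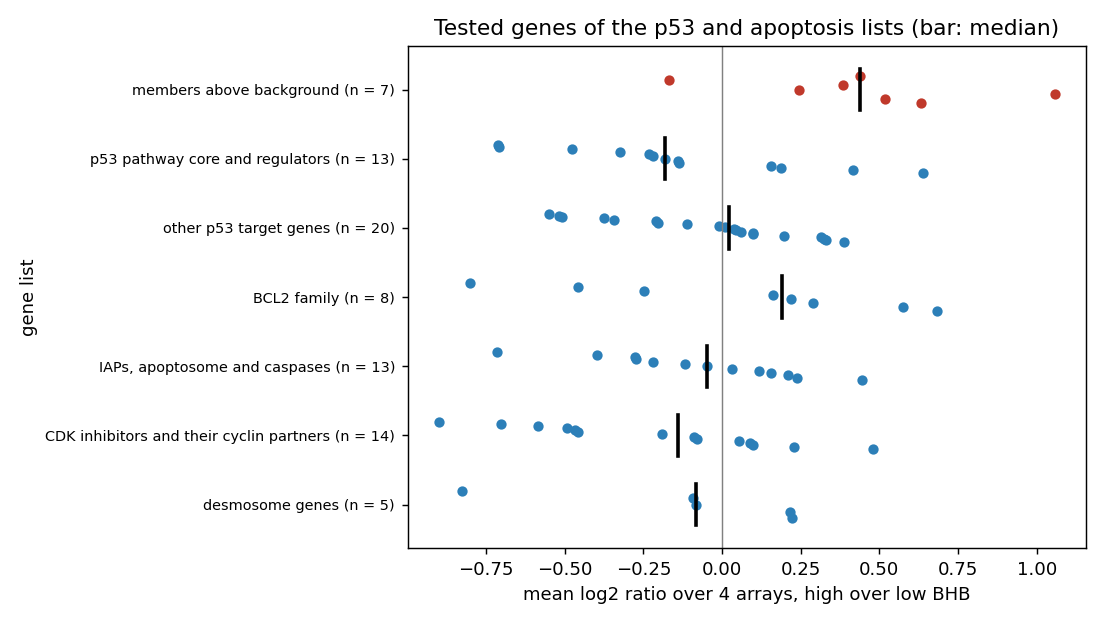
Mean log2 ratio over the 4 arrays for the tested members (red) and for the tested genes of the 6 wider lists (blue), with a bar at each median. The median is 0.44 for the members and lies between -0.18 and 0.19 in the other lists.

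The cell types of the embryo were checked by markers. All 5 inner cell mass markers were above background, as were all 8 trophectoderm markers with a probe, of 9 listed. Of the inner cell mass markers 4 had means below 0 (median -0.41), with summed levels over the 5 genes of 9413 to 19184 in high BHB and 10421 to 19364 in low BHB embryos. SOX2 was below 0 on all 4 arrays. The mean of NANOG rested largely on array 4 (-0.42, 0.13, 0.18 and -3.38), and the other DPPA3 probe was at 0.27. Trophectoderm markers were split 4 above and 4 below 0 (median near 0), with summed levels of 60566 to 114325 and 88767 to 119553. GATA2 and TEAD4 were above 0 on all 4 arrays, and no trophectoderm marker was below 0 on all 4.

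All 3 tested hypoblast markers of 5 listed had means above 0 (median 0.55), with summed levels of 5312 to 8976 in high BHB and 2617 to 5380 in low BHB embryos. GATA4 was above 0 on all 4 arrays. HNF4A was uneven, at 0.09, 1.55, 2.65 and -0.03, and PDGFRA was at -0.08 on array 4. On that array the summed level was 5312 in high BHB and 5380 in low BHB embryos. Of 4 blood cell markers, PTPRC and HBA were above background, at 0.42 and 0.25, with summed levels of 23529 to 35718 and 16927 to 28375, while HBB and CD14 were not above it. None of the 5 cumulus and granulosa markers or the 4 oviduct and uterine markers passed the detection filter. The part of these markers in the members' ratios was not tested.

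For each tested member, the genes with the most similar ratios over the 4 arrays were found by the root mean square difference among 7834 named genes. Those nearest to TP53I11 were BCAT2, MYL9 and SPATA2, at 0.20, 0.22 and 0.23. BAX had ATF7IP, CCDC124 and AATF at 0.06 each, and MCL1 had HINT1, RECQL5 and PELI3 at 0.03, 0.06 and 0.07. CDKN1A had S1PR2, SLC23A3 and YES1 at 0.04, 0.05 and 0.05, and PERP had ATP6V1F, EPHB4 and UBE2E1 at 0.05 each. For DIABLO they were TMPRSS5, ZW10 and FSCN1 at 0.10, 0.11 and 0.14, and for BCL2L1 LRRC8E, PTP4A1 and SAYSD1 at 0.25, 0.32 and 0.34. The nearest gene was farther from TP53I11 and from the brighter BCL2L1 probe than from any other member.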

How the data were processed

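RNA of morulas and blastocysts was hybridised on 4 two-colour Agilent arrays. The deposited scanner tables give, per the file headers, the intensity of spot and local background for each dye, with a deposited flag for spots set aside by the scanner software, and were not yet normalised. The deposited value table holds log2 ratios that correlate at 0.97 to 0.99 with the ratios here turned to high over low BHB, so the authors had already turned them; of their normalisation only limma is known, from the submitters' processing notes. A further deposited table with 4 columns of values was not used. The direction of each ratio comes from the dyes in the labels.

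Median spot and background intensities were corrected with normexp (offset 50, fitted without flagged spots), normalised within arrays by loess (span 0.3), averaged per probe and turned to high over low BHB, in limma 3.58.1 with R 4.3.3. Scaled channel levels used Aquantile. A channel was above background when its spot exceeded the median plus 2 MAD of the 153 negative control spots (152 on arrays 2, 3 and 4, each with 1 control set aside by the scanner software), and a probe was tested when 1 channel did so on at least 3 of 4 arrays. The mean ratio was tested against 0 with lmFit and eBayes over 16575 probes with Benjamini-Hochberg adjustment; the fit was checked on simulated data. The brightest probe represents a gene. The smallest two-sided exact sign-flip p for 4 arrays is 0.125. The number of arrays limits the precision. Symbols came from the platform annotation, updated through RefSeq (21790 probes with a symbol, 22004 without). Named genes were all members, the 3 highest and 3 lowest of each wider list, and the 3 nearest genes of each member; XIAP was added after its values were seen. Members and lists were chosen with earlier results of these data known. Alternatives covered background correction, normalisation, detection, filters, dye, pairing by title number and leaving out each array. No sequences are printed.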

Additional observations from a re-analysis of the deposited data

How the results depend on the processing

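Of 17 alternatives, 6 change only the tested set or the error and leave the members' means as they were. Under the other 11, 74 of 77 member means kept their sign. The exceptions were DIABLO, at -0.035 with median centring, and DIABLO and BCL2L1 when array 1 was left out; leaving out each array in turn gave -0.088 to 0.74 for DIABLO and -0.15 to 0.67 for BCL2L1. The count of probes past an adjusted p of 0.05, 2 as reported, was 0 with normexp fitted on all spots, with mean intensities, with median centring and with no replicate block (each channel taken as its own sample), and 1 with no background correction, with local background subtraction, with no filter and with a dye term. It was 3 with detection required in both channels on all arrays, and ranged from 0 to 2 when each array was left out. Titles number the dye-swapped arrays 1 and 2 again, while descriptions number all 4 arrays. Averaging arrays of one title number left 2 values a probe and called 1531 probes and 1 member, TP53I11, at an adjusted p of 0.0009. Then 6 members had 1 direction, but 2 values share a direction more readily than 4. The share over all genes at this setting is not given, so the count has no background. Under the other alternatives the adjusted p of TP53I11 ran from 0.158 to 0.690. When both channels had to be detected on all arrays, 1 member kept 1 direction, since BAX was no longer tested. MDM2, BAX and 2 BCL2L1 probes were limited by signal near background.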
